A study of Homo sapiens with 8 samples.

Results

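The mitochondrial genome transcripts are the RNAs made from the small circular DNA inside mitochondria. They were taken as every gene whose symbol begins with MT-, which gave 37 of the 57820 genes listed. These are 13 messenger RNA genes, 2 ribosomal RNA genes and 22 transfer RNA genes. Counts of messenger RNAs below are counts of genes. MT-ND4L and MT-ND4, which overlap, are counted separately, as are MT-ATP8 and MT-ATP6. Membership rests on the symbol alone, but the gene group was selected on its expected counts in the MGA, Empty, siMYC and siNC libraries, seen in earlier results of these data. A count over its members therefore describes the group and supports nothing beyond it. The cells are A549, an established human lung adenocarcinoma line. The MGA libraries come from cells with an MGA overexpression vector, and the Empty libraries from cells with the vector alone; MGA binds DNA together with MAX. The siMYC libraries come from cells given an siRNA that silences MYC, the oncogenic partner of MAX, and the siNC libraries from cells given a negative control siRNA. Each group has replicates A and B, and poly(A) RNA was sequenced. No source used here gives the vector promoter, the siRNA sequences or the time of harvest.

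The mitochondrial genome is transcribed from its control region in long RNAs that span many genes on a strand. Transfer RNAs lie between most of the messenger and ribosomal RNAs and are cut out, which frees the RNAs on either side, and most of the messenger RNAs then receive a short poly(A) tail. The messenger RNAs encode core subunits of the respiratory chain complexes I, III and IV and of the ATP synthase, complex V, while the ribosomal RNAs form the mitochondrial ribosome that translates them. The transcription, processing and decay factors, and all other subunits, are made from nuclear genes.

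The tail matters for the reading frame as well as for poly(A) selection. By their annotated ends, 6 of the 13 messenger RNAs stop before their stop codon is complete and the added A residues finish it. The other 7 carry a full stop codon as annotated, which in MT-CO1 and MT-ND6 is AGA and AGG. In MT-ATP6 the last letter of that codon is the 1 base shared with the start of MT-CO3. The last 24 bases of 8 messenger RNAs are shown to make this visible, with the encoded letters of the stop codon in capitals. They are read 5′ to 3′ from the GENCODE 29 transcripts, matched by versioned ID, with 37 of 37 lengths equal to those in the deposited tables.
MT-CO2: atagggcccgtatttaccctaTAG
MT-CO1: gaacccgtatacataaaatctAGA
MT-ND6: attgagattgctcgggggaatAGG
MT-ND1: ctccagcattccccctcaaaccTA
MT-ND2: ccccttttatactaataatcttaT
MT-ND3: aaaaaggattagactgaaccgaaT
MT-ND4: acatcattaccgggttttcctctT
MT-CYB: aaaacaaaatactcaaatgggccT

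Coordinates are those of GENCODE 29 on GRCh38, not of the hg19 build the authors used. MT-CO2 occupies chrM:7586-8269, MT-ND2 chrM:4470-5511, MT-ND3 chrM:10059-10404 and MT-RNR1 chrM:648-1601, all on the plus strand. MT-ND6 at chrM:14149-14673 is the only messenger RNA encoded on the minus strand, and its base composition runs the other way, with 35.6% G and 7.05% C against 11.7% G and 36% C in MT-ND1. None of these genes has an intron.

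Expected counts are RSEM's estimates of the reads of each gene, and their totals were 1176890 and 917548 with MGA, 844477 and 820428 with Empty, 2129006 and 1598792 in the siMYC libraries, and 1398805 and 1741730 in the siNC libraries. Epithelial keratins KRT8 and KRT18 were abundant in all 8 libraries, while the lung lineage markers NKX2-1, SFTPB and SFTPC had 0 counts in all 8. Other markers on the epithelial list stood lower than these keratins. KRT19 had 6.80 and 7.63 CPM with MGA and 7.10 and 12.2 CPM with Empty. CDH1 ran from 16.4 to 63.4 CPM over all 8 libraries. EPCAM had 0 counts with MGA and at most 10.6 CPM elsewhere, and the lung marker NAPSA at most 3.27 CPM. The leukocyte gene PTPRC and the endothelial genes VWF, CDH5 and KDR also had 0 counts, and CD68 had 138 and 154 CPM with MGA and 202 and 192 CPM with Empty. MGA reads were 9.54% and 9.68% of the counts with MGA and at most 0.0124% in the others, and MYC averaged 44.7 ± 5.05 CPM in the siMYC libraries and 201 ± 26 CPM in the siNC libraries (SD, n = 2 each). MYC was called higher with MGA, at 321 ± 36.3 CPM with MGA and 237 ± 5.07 CPM with Empty (SD, n = 2 each, log2 fold change 0.43, edgeR adjusted p = 0.025). CPM is the count scaled to a fixed total per library after TMM scaling, which assumes that most genes do not differ. The CPM of the cell type markers use library totals alone, without TMM scaling.

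The 22 transfer RNA genes were listed at 0 in all 8 libraries. They are 59 to 75 bases long, and their effective length, the number of positions at which a sequenced fragment can start, was 0 in the tables. RSEM assigns no reads to a gene shorter than the fragments, so these values say nothing of transfer RNA levels. The gene MT-TV, which carries valine and separates the ribosomal RNAs MT-RNR1 and MT-RNR2 at chrM:1602-1670, shows how short such a gene is.
MT-TV: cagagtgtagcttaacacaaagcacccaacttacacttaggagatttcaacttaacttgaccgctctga
The remaining 15 genes, all messenger and ribosomal RNAs, had counts in every library, and all 15 passed the filter on low counts, which kept 11218 genes.

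With MGA, messenger RNAs of all mitochondrially encoded complexes fell, while both ribosomal RNAs, MT-ND3, MT-ND6 and MT-ATP8 did not pass the test. The summed messenger RNAs stood at 19761 and 19681 CPM with MGA, against 27967 and 27423 CPM with Empty, a log2 ratio of -0.49. Of 13 messenger RNA genes, 10 fell at an adjusted p under 0.05, and for each of them both MGA libraries were below both Empty libraries. In the same fit 4% of all genes tested were called lower (449 lower and 556 higher; 628 and 387 with upper-quartile size factors, 821 and 300 with library totals alone, where the median log2 fold change of all genes is -0.12). The median log2 fold change was -0.46 over the messenger RNAs and 0.01 over all genes. In bulk RNA, less RNA per cell and fewer cells that carry it cannot be told apart.

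Fold changes, standard errors and adjusted p-values come from edgeR's quasi-likelihood test over all genes, with Benjamini-Hochberg adjustment. Each p-value covers only the spread among the deposited libraries, since nothing says that replicates came from separate cultures. That spread was estimated jointly over the 4 groups, so a standard error with siMYC also rests on the MGA and Empty libraries, and the reverse. Relative to sampling noise, the MGA and Empty replicates differed less than the siNC and siMYC replicates. With each experiment fitted alone, edgeR called 12 of the 15 genes lower with MGA and 2 with siMYC. The smallest p that an exact permutation test of 2 against 2 libraries can give is 0.333, so none is used.

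**Figure D1:**
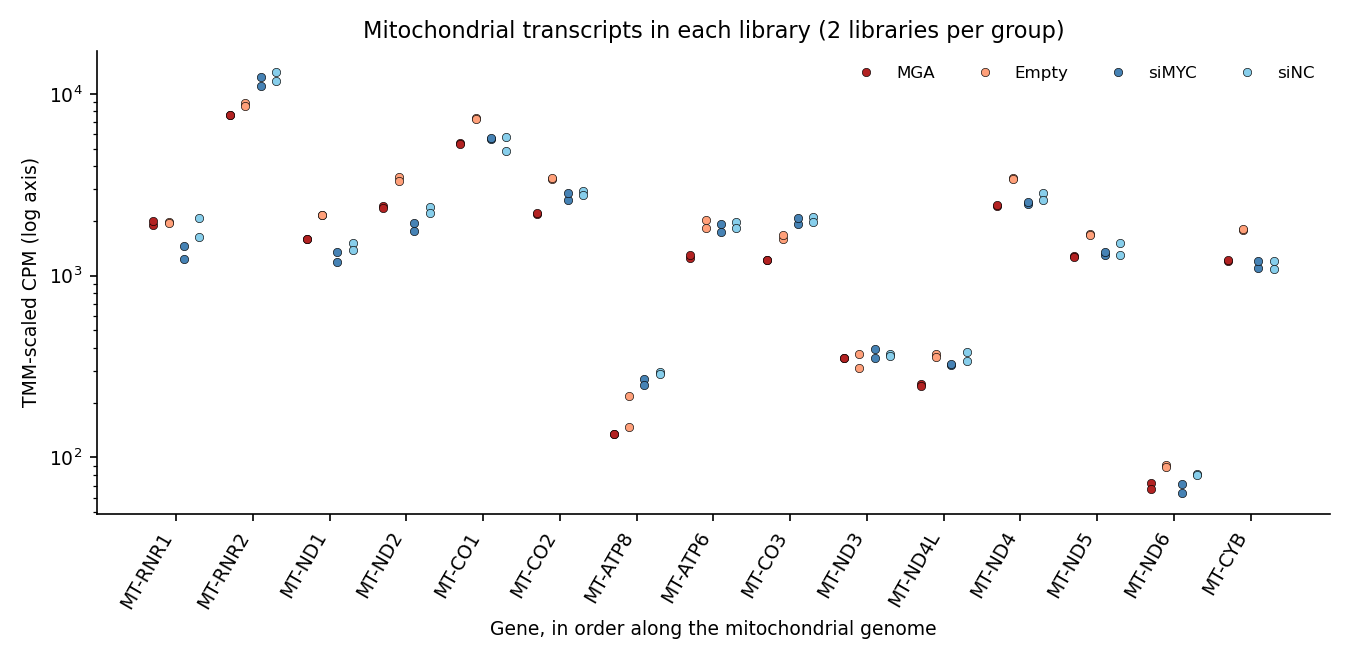
TMM-scaled CPM (log axis) of the 15 mitochondrial genes with counts, in genome order, in 2 libraries each of MGA, Empty, siMYC and siNC; each point is a library. The MGA points lie below both Empty points for 13 of the 15 genes, MT-RNR1 and MT-ND3 being the exceptions.

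Complex IV, cytochrome c oxidase, passes electrons to oxygen, and its 3 mitochondrial subunits all fell with MGA. MT-CO2, which holds the copper centre that first accepts electrons from cytochrome c, stood at 2182 and 2221 CPM with MGA and at 3399 and 3432 CPM with Empty. This was the lowest fold change of the 15 genes (log2 fold change -0.63 with an SE of 0.07, adjusted p = 5.3e-07), and it was called in 23 of 23 alternative settings. MT-CO1, the catalytic subunit and the most abundant of the messenger RNAs by count, had 5373 and 5283 CPM with MGA, against 7359.7 and 7259 CPM with Empty. The log2 fold change of MT-CO1 was -0.46 with an SE of 0.07 (edgeR adjusted p = 7e-05). MT-CO3, a core subunit without a redox centre, had 1226 and 1213 CPM with MGA and 1584 and 1679 CPM with Empty (log2 fold change -0.42 with an SE of 0.08).

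Complex III, the cytochrome bc1 complex, has a single mitochondrial subunit, cytochrome b, encoded by MT-CYB. It had 1199.8 and 1221 CPM with MGA and 1783 and 1811 CPM with Empty, and both MGA libraries were lower (log2 fold change -0.57 with an SE of 0.08, edgeR adjusted p = 1.5e-05).

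Complex V makes ATP from the proton gradient. MT-ATP6, a subunit of its proton channel, had 1256 and 1296 CPM with MGA and 2023 and 1831 CPM with Empty (log2 fold change -0.60 with an SE of 0.08, adjusted p = 8.5e-06). MT-ATP8, a small membrane subunit, had 134.1 and 134.4 CPM with MGA and 218 and 147.5 CPM with Empty, so that the Empty libraries differed widely from each other, and it did not pass (log2 fold change -0.45 with an SE of 0.15, adjusted p = 0.061). It was called in 9 of 22 alternative settings, among them upper-quartile size factors, library totals alone, no filter and a minimum count of 30. The log2 fold change was -0.70 without Empty replicate B, and -0.14 and not called without Empty replicate A. It was -0.45 and called where siMYC replicate A or B was left out. The reading frames overlap: MT-ATP8 at chrM:8366-8572 shares its last 46 bases, in capitals here, with the start of MT-ATP6, so reads there fit either gene.
MT-ATP8: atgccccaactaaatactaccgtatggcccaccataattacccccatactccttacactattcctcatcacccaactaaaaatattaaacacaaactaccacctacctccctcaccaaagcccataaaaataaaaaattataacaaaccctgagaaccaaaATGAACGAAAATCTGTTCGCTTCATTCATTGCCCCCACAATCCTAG

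Complex I, which takes electrons from NADH, has 7 mitochondrial subunits, and 5 of them fell. MT-ND2 had 2428 and 2349.5 CPM with MGA and 3485 and 3299 CPM with Empty (log2 fold change -0.51 with an SE of 0.07, edgeR adjusted p = 2.7e-05). MT-ND4, with MT-ND2 among the subunits that form the proton pumps, had 2415 and 2439 CPM with MGA and 3449 and 3386.5 CPM with Empty (log2 fold change -0.49 with an SE of 0.07). MT-ND1, next to the quinone site, and MT-ND5, another pump subunit, fell by 0.44 and 0.40 on the log2 scale. MT-ND4L shares an RNA with MT-ND4 and 7 bases with it, capitals in the last 60 bases printed here, and it had a log2 fold change of -0.54 with an SE of 0.11 (edgeR adjusted p = 0.0014).
MT-ND4L: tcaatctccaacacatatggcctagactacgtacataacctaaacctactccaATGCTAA

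The other complex I genes, MT-ND6 and MT-ND3, did not pass. MT-ND6 was the least abundant of the 15, with 79 and 57 counts with MGA and 78 and 74 with Empty. The exact Poisson 95% interval of 57 counts runs from 43.2 to 73.9, and such intervals cover counting error only. In CPM the MGA libraries, at 72.1 and 66.6, lay below the Empty libraries, at 90.3 and 88.7, and the log2 fold change was -0.36 with an SE of 0.17 (edgeR adjusted p = 0.21). The strand setting of the counting is not given in the sources used, so reads of MT-ND6 and of RNA from the opposite strand there cannot be told apart.

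MT-ND3, whose product lies in the membrane arm of complex I, did not pass either. It had 352.2 and 351.7 CPM with MGA and 371.6 and 309.4 CPM with Empty, so the groups overlapped (log2 fold change 0.05 with an SE of 0.11, edgeR adjusted p = 0.85). The sign is not settled: it was -0.08 without Empty replicate B, and -0.03 and -0.08 with upper-quartile size factors and with library totals alone. As a share of the summed mitochondrial messenger RNAs it was 1.78% and 1.79% with MGA, above the 1.33% and 1.13% with Empty. MT-ND3 is short, and its effective length also differed between libraries, at 119 and 116 bases with MGA and 121 and 107 bases with Empty. The part of this in its counts was not tested.

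The ribosomal RNAs, which the same heavy-strand RNA carries ahead of the messenger RNAs, gave smaller values. MT-RNR2, the large-subunit RNA, had 7671 and 7675 CPM with MGA and 8884 and 8586 CPM with Empty, and did not pass (log2 fold change -0.19 with an SE of 0.07, adjusted p = 0.072), although it was called lower in 9 of 23 alternative settings. These included leaving out any siMYC or siNC replicate, each with a log2 fold change of -0.19. MT-RNR1, the small-subunit RNA, had 1892 and 1988 CPM with MGA and 1974 and 1940.3 CPM with Empty, with groups that overlapped (log2 fold change -0.01 with an SE of 0.09). Relative to the summed messenger RNAs, MT-RNR1 was 9.58% and 10.1% with MGA and 7.06% and 7.08% with Empty, and MT-RNR2 was 38.8% and 39.0% with MGA and 31.8% and 31.3% with Empty. In each case both MGA libraries were above both Empty libraries. The libraries were poly(A)-selected, and the part of that selection in the ribosomal RNA values of either comparison was not tested.

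Over all 15 genes the groups did not overlap in 13, with MGA below Empty in each. Of all genes tested, 25% had this order and 27.6% the opposite. No member was called higher with MGA by edgeR, where 0 of 15 were higher at an unadjusted p under 0.05, nor by DESeq2 or limma-trend on TPM, also with 0 at an unadjusted p under 0.05, while 4.96% of all genes tested were called higher by edgeR. DESeq2 called 10 lower, and limma-trend on log2(TPM + 1) called 8. With each pair of overlapping genes summed, MT-ND4L with MT-ND4 and MT-ATP8 with MT-ATP6, edgeR called 9 of 13 members lower. The overexpressed gene itself takes up counts with MGA: without MGA reads in the total, mitochondrial messenger and ribosomal RNAs made up 3.02% and 3.03% of counts with MGA and 3.97% and 3.86% with Empty.

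**Figure D2:**
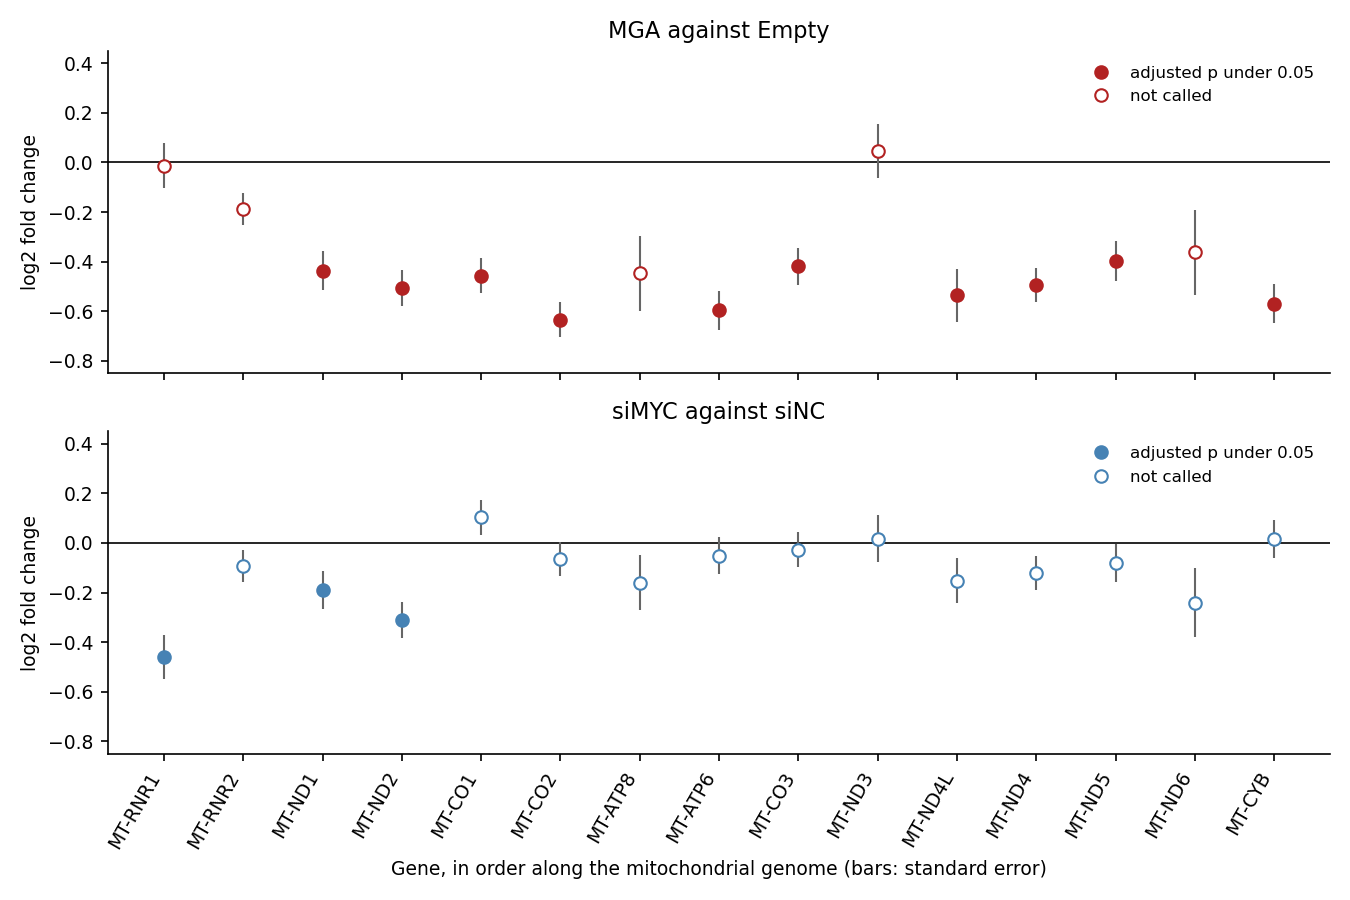
Log2 fold change (bars: standard error) of the 15 genes in genome order, MGA against Empty above and siMYC against siNC below; filled points have an adjusted p under 0.05 in edgeR. With MGA the called genes run from -0.40 to -0.63 and MT-RNR1 and MT-ND3 lie near 0; with siMYC the called genes are MT-RNR1, MT-ND1 and MT-ND2.

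Most mitochondrial messenger RNAs did not pass the test with MYC knockdown, and the genes that fell were MT-RNR1, MT-ND2 and, less firmly, MT-ND1, all in the first part of the heavy-strand RNA. MT-RNR2, which lies between MT-RNR1 and MT-ND1, did not pass. The summed messenger RNAs were 20792 and 22022 CPM in the siMYC libraries, against 23387 and 21061 CPM in the siNC libraries, so the groups overlapped, with a log2 ratio of -0.05. That ratio was 0.022 without siNC replicate A, -0.14 without siNC replicate B, -0.015 without siMYC replicate A and -0.10 without siMYC replicate B. Of the 15 genes 3 fell, a share like the 20% of all genes tested that were called lower in this comparison. The median log2 fold change was -0.09 over the 15 genes and 0.01 over all genes. No member was called higher by edgeR (0 at an unadjusted p under 0.05) or by DESeq2 (0 at an unadjusted p under 0.05), against 19% of all genes tested by edgeR. The fibroblast marker COL1A1 stood at 168 and 176 CPM in the siMYC libraries and at 22.9 and 45.9 CPM in the siNC libraries, while of the other fibroblast markers COL1A2 and DCN had 0 counts in these libraries and PDGFRB at most 0.574 CPM. CD68 stood at 37.1 and 39.3 CPM in the siMYC libraries and at 21.4 and 19.3 CPM in the siNC libraries, with PTPRC at 0, and the epithelial keratin KRT19 at 113 and 91.9 CPM in the siMYC libraries and at 46.5 and 39.6 CPM in the siNC libraries. The part of these genes in the results was not tested.

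MT-RNR1 had 1237 and 1462 CPM in the siMYC libraries and 2075 and 1637 CPM in the siNC libraries. The siNC libraries differed widely from each other, but both siMYC libraries were lower (log2 fold change -0.46 with an SE of 0.09, edgeR adjusted p = 0.00016). This SE uses the spread shared by all 4 groups. With only the siMYC and siNC libraries fitted, the log2 fold change was again -0.46, with an edgeR adjusted p of 0.0027. The fall was 0.28 on the log2 scale without siNC replicate A and 0.64 without siNC replicate B, and 0.35 and 0.59 without siMYC replicate A and B, and it was called each time. MT-RNR2, made from the same RNA, had 11053 and 12353 CPM in the siMYC libraries and 13226 and 11766 CPM in the siNC libraries, which overlapped (log2 fold change -0.09 with an SE of 0.06, adjusted p = 0.26). The number of MT-RNR2 counts per MT-RNR1 count was accordingly 8.94 and 8.45 in the siMYC libraries and 6.37 and 7.19 in the siNC libraries. In the overexpression experiment the ratio was 4.05 and 3.86 with MGA and 4.50 and 4.43 with Empty, so both siMYC libraries lay above their controls and both MGA libraries below theirs.

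MT-ND2 had 1759 and 1953 CPM in the siMYC libraries, below the 2382.5 and 2217 CPM of the siNC libraries (log2 fold change -0.31 with an SE of 0.07, edgeR adjusted p = 0.001). MT-ND1 had 1194 and 1341.5 CPM in the siMYC libraries and 1514.5 and 1377 CPM in the siNC libraries, and its adjusted p of 0.047 in edgeR sits at the threshold (log2 fold change -0.19 with an SE of 0.08). With only the siMYC and siNC libraries fitted, the edgeR adjusted p was 0.0082 for MT-ND2 and 0.10 for MT-ND1. The MT-ND1 call was lost in 14 of 23 alternative settings, among them without siNC replicate A (log2 fold change -0.12), without siMYC replicate A (-0.11) and without MGA replicate A or B (-0.20 each). On deposited TPM none of these 3 genes was called: limma-trend on log2(TPM + 1) called 0 members, with 1 lower and 3 higher at an unadjusted p under 0.05. The TPM scale also moves the median of all genes in this comparison to a log2 fold change of 0.14.

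The remaining messenger RNAs did not pass with siMYC, and their log2 fold changes ran from -0.24 for MT-ND6 to 0.10 for MT-CO1. MT-CO2 had 2612 and 2865 CPM in the siMYC libraries and 2931 and 2793 CPM in the siNC libraries, with a log2 fold change of -0.06 (SE 0.07). MT-CO1 had 5660.1 and 5727 CPM in the siMYC libraries and 5783 and 4821 CPM in the siNC libraries, and the siNC libraries lay on either side of the siMYC libraries. MT-CYB, MT-ND3, MT-CO3, MT-ATP6 and MT-ND5 also overlapped between the groups, and MT-ND4, MT-ND4L, MT-ATP8 and MT-ND6 were lower in both siMYC libraries without passing the test. In all, 7 of the 15 genes had both siMYC libraries below both siNC libraries; 33.6% of all genes tested had this order and 34% the opposite. The count of called genes depends on a single library: it was 6 without siNC replicate B, where MT-ND5 (log2 fold change -0.21), MT-ND4 (-0.20) and MT-RNR2 (-0.19) were called as well. MT-RNR2 was also called without siMYC replicate B (-0.18), and MT-CO1 was called higher without siNC replicate A (0.24).

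**Figure D3:**
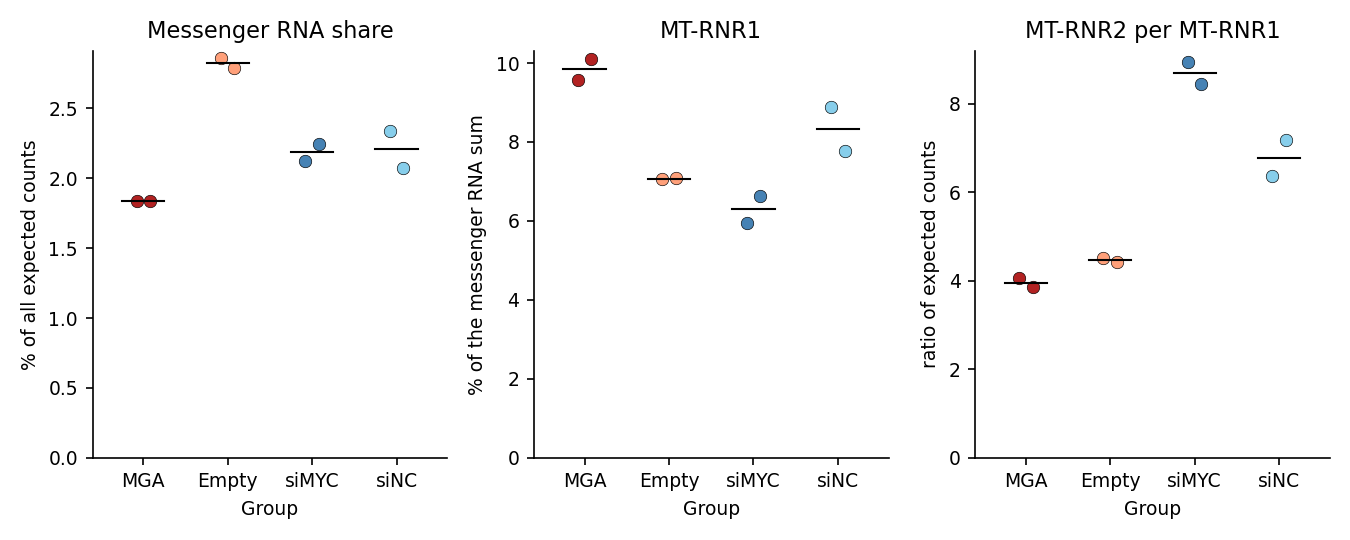
Left, mitochondrial messenger RNAs as a percentage of all expected counts; middle, MT-RNR1 as a percentage of the summed mitochondrial messenger RNA counts; right, MT-RNR2 counts per MT-RNR1 count. Points are libraries, lines the mean of 2: MT-RNR1 relative to the messenger RNAs is higher with MGA than with Empty (9.58% and 10.1% against 7.06% and 7.08%) and lower with siMYC than with siNC (5.95% and 6.64% against 8.87% and 7.77%).

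The test of the difference between the MGA and siMYC responses called 7 messenger RNAs lower and 1 gene, MT-RNR1, higher in the MGA response. Across all genes tested, 18.5% were called in this contrast, 8.22% lower and 10.3% higher. That is 922 lower and 1154 higher, against 1188 and 804 with upper-quartile size factors, 1357 and 714 with library totals alone and 1101 and 892 without the MGA gene. The differences were largest for MT-CYB (log2 difference -0.59 with an SE of 0.11, edgeR adjusted p = 0.00035), MT-CO2 (-0.57) and MT-CO1 (-0.56), followed by MT-ATP6 (-0.54), MT-CO3 (-0.39), MT-ND4 (-0.37) and MT-ND5 (-0.32). For MT-RNR1 the difference was 0.45 (SE 0.13, adjusted p = 0.015). MT-ND1 and MT-ND2, called lower in both comparisons, gave log2 differences of -0.25 and -0.20 and did not pass (adjusted p = 0.12 and 0.19 in edgeR). Both were called under other scalings: MT-ND1 at -0.37 and MT-ND2 at -0.31 with upper-quartile size factors, at -0.42 and -0.37 with library totals alone, and at -0.33 and -0.28 with the MGA gene left out. The MT-ND5 call was lost in 11 of 22 alternative settings, among them the omission of any library except siNC replicate A, with values from -0.34 without siMYC replicate A to -0.20 without siNC replicate B. The MT-RNR1 call was lost in 10 of 22, among them without siNC replicate A (0.27), siMYC replicate A (0.33), MGA replicate B (0.42) and Empty replicate B (0.45). The MT-CO3 call was lost without Empty replicate B (-0.34) or MGA replicate B (-0.38), and the MT-ND4 call without MGA replicate A (-0.36). MT-ND1 was called without siNC replicate A (-0.31) or siMYC replicate A (-0.33). MT-ND4L, at -0.38, did not pass (edgeR adjusted p = 0.056), but it was called in 8 of 21 alternative settings. Among them were RLE size factors (-0.42), upper-quartile size factors (-0.50), library totals alone (-0.56) and the MGA gene left out (-0.47). Another was the omission of siNC replicate A (-0.46). Across the 14 heavy-strand genes, the Pearson correlation of the log2 fold change with the gene's place in the genome was 0.57 for siMYC and -0.39 for MGA. The Spearman correlation was weaker, at 0.46 and -0.26. Both are descriptions over genes that share the same libraries and, for neighbours, the same reads.

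Levels between genes can be compared only per length, and for this the deposited TPM was used. In the siNC libraries, 7 of the 37 genes were among the 20 with the highest mean TPM of all genes. MT-ATP8 headed the order in all 4 groups, at 11245 ± 764 TPM with MGA, 15094 ± 1436 with Empty, 14918 ± 1150.0 with siMYC and 16233 ± 1824 with siNC (SD, n = 2 each). That place rests on an effective length of only 14.6 to 27.9 bases, so it is uncertain. MT-CO2 was in the first 3 in every group, at 7159 ± 155 TPM with MGA, 10948 ± 89.8 with Empty, 9092 ± 410 with siMYC and 8496 ± 472 with siNC. MT-CYB, MT-ND5 and MT-ND6 took the last 3 places in all 4 groups, MT-ND6 with 349 ± 14.9 TPM in the MGA group, 447 ± 1.12 in the Empty group, 336 ± 33.1 in the siMYC group and 358 ± 11.3 in the siNC group. MT-ND6 is encoded on the other strand, and the part of the strand or of poly(A) selection in its place was not tested. In the middle of the order neighbours such as MT-ND4 and MT-ND1 in the Empty group, at 4265 ± 114 and 4263 ± 44.0 TPM, did not differ beyond their spread.

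The nucleus carries copies of mitochondrial DNA, and RSEM divides reads that fit both places. Copies were found by their symbol alone. Of 188 so named, for example MTND2P28 or MTATP6P1, 15 held reads and these 2 held most of them. MTATP6P1 had 194 and 155 expected counts with MGA and 280.3 and 220.5 with Empty. MTATP6P1 is 98.5% identical to MT-ATP6 and MTND2P28 98.2% identical to MT-ND2 in the GENCODE 29 transcripts. The copies found by symbol held 1.07% and 0.996% of the mitochondrial reads with MGA and 1.29% and 1.08% with Empty. They held 1.02% and 1.09% in the siMYC libraries and 1.08% and 1.03% in the siNC libraries. MT-CO1 also had fractional expected counts, 5888.87 and 4521.59 with MGA and 6356.85 and 6052.54 with Empty. No copy named for MT-CO1 held reads, so reads shared with entries under other names are not in these shares. With the copies found by symbol added to their mitochondrial gene, the counts of called genes were again 10 for MGA and 3 for siMYC. MT-ATP6 then had a log2 fold change of -0.61 with MGA.

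The nuclear partners of these RNAs were set beside them. Of 73 nuclear subunits of complexes I, III, IV and V, 1 fell with MGA, ATP5G1, a subunit of the ATP synthase ring (log2 fold change -0.86 with an SE of 0.23, adjusted p = 0.014), and 6 were lower and 1 higher at an unadjusted p under 0.05. Their median log2 fold change was -0.07, and 4% of all genes tested were called lower. With siMYC, where 20% of all genes tested were called lower, 28 of the 73 fell, with a median of -0.29, among them CYC1, cytochrome c1 of complex III (log2 fold change -1.21 with an SE of 0.11), NDUFA12 of complex I (-1.69, SE 0.25) and ATP5G1 (-1.66, SE 0.16). The nuclear subunits were measured less precisely: the median SE with MGA was 0.21 for them and 0.08 for the mitochondrial messenger RNAs, so the counts of calls are not on equal terms. The medians show the same order as the counts, with the mitochondrial messenger RNAs at -0.46 with MGA and -0.08 with siMYC.

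**Figure D4:**
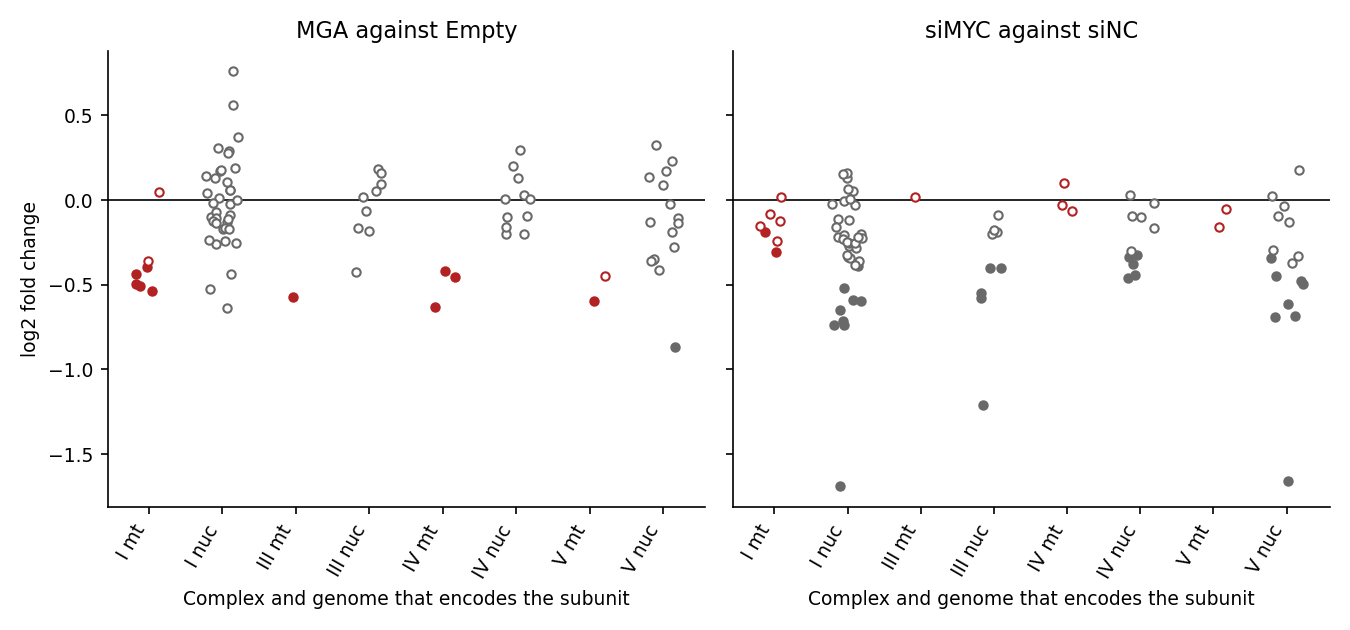
Log2 fold change of mitochondrially encoded (mt, red) and nuclear-encoded (nuc, grey) subunits of complexes I, III, IV and V, MGA against Empty on the left and siMYC against siNC on the right; each point is a gene, filled where the adjusted p is under 0.05 in edgeR. Filled red points appear mainly on the left (10 of 13) and filled grey points mainly on the right (28 of 73).

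Of 16 genes tested that transcribe and copy mitochondrial DNA, 1 fell with MGA, POLRMT, the mitochondrial RNA polymerase (log2 fold change -0.83 with an SE of 0.21, edgeR adjusted p = 0.01), and 8 fell with siMYC. The shares of all genes tested called lower were again 4% and 20%. These 8 included TFAM, which packs the genome and starts transcription, at 88.2 ± 12.3 CPM in the siMYC libraries and 144 ± 0.605 CPM in the siNC libraries (SD, n = 2 each; log2 fold change -0.72 with an SE of 0.14). C10orf2, the helicase Twinkle, had a log2 fold change of -1.20 with siMYC, and TFB2M, the initiation factor, of -0.75. POLRMT had -0.53 with siMYC (SE 0.16, adjusted p = 0.01 in edgeR). TFAM did not pass with MGA, at 116 ± 7.21 CPM with MGA and 119 ± 27 CPM with Empty.

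Of 28 gene entries for processing and decay of mitochondrial RNA, 22 fell with siMYC and none passed with MGA by edgeR, where 1 was lower at an unadjusted p under 0.05. The shares of all genes tested called lower were 20% with siMYC and 4% with MGA, so the absence of calls with MGA lies near that share. The median log2 fold change of these entries was -0.66 with siMYC and -0.08 with MGA, with a median SE of 0.19 and 0.22. LRPPRC, which binds and stabilises the messenger RNAs, averaged 235 ± 32.4 CPM in the siMYC libraries and 484 ± 2.50 CPM in the siNC libraries (SD, n = 2 each; log2 fold change -1.05 with an SE of 0.10). Its partner SLIRP had a log2 fold change of -1.01, and PNPT1, of the RNA-degrading complex, of -1.20. FASTKD2 and GRSF1, proteins of the mitochondrial RNA granule, had -1.15 and -0.68, and PDE12, which removes poly(A) tails, -1.16. The entry that rose with siMYC is a second ID of KIAA0391 (log2 fold change 2.35 with an SE of 0.63) that shares its symbol with the main entry, which had -0.72, so its value is uncertain.

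Among 10 regulators of mitochondrial biogenesis, 1 rose with MGA, the lysosomal and mitochondrial regulator TFE3 (log2 fold change 0.78 with an SE of 0.13), which also rose with siMYC (0.69, SE 0.13). With siMYC, PPRC1 and PPARGC1B, coactivators of the PGC-1 family, fell by 1.43 and 2.17 on the log2 scale, GABPB1 fell by 1.42, and GABPA and PPARA rose (log2 fold changes 1.04 and 1.70). Of all genes tested, 19% were called higher with siMYC and 4.96% with MGA, and in either direction 39% and 8.96%.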

How the data were processed

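A549 RNA was sequenced in 8 poly(A)-selected libraries, 2 per group, and the authors deposited a gene table for each. Per the file headers, each table gives the expected count of a gene, estimated by dividing reads among the genes they fit, the TPM, scaled to effective length and to a fixed total, and the effective length. Per the submitters' processing notes the tools were STAR and RSEM and the build hg19; neither versions, annotation nor strand setting is given in the sources used here.

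Expected counts were rounded, and filterByExpr at a minimum count of 10 and a minimum total of 15 left 11218 of 57820 genes. TMM scaling and a joint model of the 4 groups, which leaves 4 residual degrees of freedom, were run in edgeR 4.0.16 under R 4.3.3. The contrasts were MGA against Empty, siMYC against siNC and their difference, called at an adjusted p under 0.05 over all genes. The standard error is the log2 fold change over the square root of F. The fit was tested on simulated data. In each group the replicates' difference exceeded sampling noise, so all were kept. The chi-square per degree of freedom was 1.13 with MGA, 1.18 with Empty, 1.82 with siNC and 1.85 with siMYC. The MGA and Empty replicates were thus closer to sampling noise than the siNC and siMYC replicates. Alternatives used DESeq2 1.42.0, limma 3.58.1 on log2(TPM + 1), other size factors and filters, and each library left out. Named genes are all members with counts, MGA, MYC and up to 6 genes with the smallest adjusted p of each nuclear list; POLRMT, SLIRP and KIAA0391 were chosen after their values were seen. The members and lists were chosen with earlier results of these data known.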

Additional observations from a re-analysis of the deposited data

Results flagged for a closer look

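For 8 genes the response to MGA differed from the response to siMYC by the test of the difference in edgeR, adjusted over all genes. The log2 difference (MGA response minus siMYC response) was -0.59 for MT-CYB, -0.57 for MT-CO2, -0.56 for MT-CO1, -0.54 for MT-ATP6, -0.39 for MT-CO3, -0.37 for MT-ND4 and -0.32 for MT-ND5. For MT-RNR1 it was 0.45, the only positive difference called among the 15 genes tested. The MGA and Empty libraries held fewer reads than the siMYC and siNC libraries, and their share of non-polyadenylated RNAs (RN7SK, RN7SL1, RN7SL2, RMRP and RPPH1) was 0.0105% and 0.00632% with MGA and 0.012% and 0.00914% with Empty, against 0.0241% and 0.0286% in the siMYC libraries and 0.0385% and 0.0249% in the siNC libraries. The part of these differences between the experiments in the called differences was not tested.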

How the results depend on the processing

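The number of genes called lower with MGA (10) stayed within 1.5 times of that under every alternative except limma-trend on log2(TPM + 1) without a filter, which called 1; leaving out a library gave 10 to 12. With siMYC, limma-trend on TPM called 0 lower in each of its 3 forms (1, 1 and 0 at an unadjusted p under 0.05); leaving out a library gave 2 to 6 lower and 0 to 1 higher, and leaving the MGA gene out of the counts gave 1 higher. For the difference of responses, 11 were lower with library totals alone and 1 with limma-trend on log2(TPM + 1) without a filter; 0 were higher with upper-quartile size factors, library totals alone, DESeq2 (1 at an unadjusted p under 0.05) and the 3 forms of limma-trend, and leaving out a library gave 5 to 9 lower and 0 to 1 higher. The log2 ratio of the summed messenger RNAs with MGA was -0.57 with upper-quartile size factors, -0.62 with library totals alone and -0.45 on summed TPM. With siMYC that ratio was 0.013 without the MGA gene and 0.038 on summed TPM. Over all genes DESeq2 called 157 higher and 186 lower with MGA and 963 higher and 1004 lower with siMYC; limma-trend on log2(TPM + 1) called 32 and 50 with MGA and 709 and 536 with siMYC. The cause of these shifts was not tested.

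Signs turned only for values that were not called, and 857 values of single genes kept direction and side of the threshold. With MGA, MT-ND3 was -0.029 with upper-quartile size factors and -0.083 with library totals alone, and MT-RNR1 was 0.013 on all 3 forms of TPM. With siMYC on all 3 forms of TPM, MT-CO2 was 0.098, MT-ND5 0.091, MT-ND4 0.047, MT-ATP6 0.11, MT-CO3 0.14 and MT-RNR2 0.073. Without the MGA gene in the counts, MT-CO2 was 0.0032, MT-ATP6 0.016 and MT-CO3 0.040; MT-CO3 was 0.018 with RLE and with DESeq2 and 0.016 with upper-quartile and library-total scaling. In the difference of responses MT-ND3 was -0.0098 with RLE, -0.090 with upper-quartile size factors, -0.14 with library totals alone, -0.057 without the MGA gene, -0.010 with DESeq2 and -0.12 on all 3 forms of TPM. With a library left out, MT-ND3 ranged from -0.085 to 0.18 and MT-RNR1 from -0.049 to 0.024 with MGA. With siMYC the ranges were -0.074 to 0.090 for MT-CYB, -0.21 to 0.036 for MT-ND5, -0.038 to 0.24 for MT-CO1, -0.074 to 0.10 for MT-ND3, -0.13 to 0.015 for MT-ATP6 and -0.089 to 0.025 for MT-CO3. In the difference they were -0.087 to 0.18 for MT-ND3 and -0.53 to 0.035 for MT-ATP8.

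Replicate letters are not said to mark a shared culture or day, and deviations of same-letter libraries correlated at -0.02 between MGA and Empty and 0.13 between siMYC and siNC. With the replicate block, 11 genes were lower with MGA, 3 with siMYC, and 8 lower and 1 higher in the difference. With a library left out, the lone library of its group is assumed to vary like the others. MT-ND6 held 57 to 155 counts per library and MT-ATP8 115 to 589. The MT-ATP8 counts of the Empty libraries, 188 and 123, have exact Poisson intervals of 162 to 217 and 102 to 147. Its call depended on which of them was kept. With both kept it depended on the processing. It was called with upper-quartile size factors, library totals alone, no filter or a minimum count of 30, but not with RLE size factors or DESeq2.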

Other observations

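The control groups of the experiments held unlike mixtures of mitochondrial RNAs, given here as values without a test because the libraries belong to different experiments, which also differ in depth. MT-RNR2 counts were 31.8% and 31.3% of the summed mitochondrial messenger RNAs with Empty and 56.6% and 55.9% in the siNC libraries. MT-CO3 made up 5.66% and 6.12% of the messenger RNA counts with Empty and 9.01% and 9.37% in the siNC libraries, while MT-ND2 made up 12.46% and 12.03% with Empty and 10.2% and 10.5% in the siNC libraries. The effective length of MT-CO1, which falls as fragments get longer, was 1308 and 1292 bases with Empty and 1331 and 1335 bases in the siNC libraries, so fragments were somewhat shorter in the siNC libraries.

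Within the messenger RNA pool the share of complex I RNAs was 35.9% and 36.2% in the siMYC libraries and 38.9% and 39.3% in the siNC libraries, and the share of complex IV RNAs was 49.1% and 48.5% in the siMYC libraries and 46.3% and 45.5% in the siNC libraries. With MGA the shares lay closer together: complex I RNAs were 42.5% and 42.2% with MGA and 41.5% and 41.1% with Empty, and complex IV RNAs were 44.4% and 44.3% with MGA and 44.1% and 45.1% with Empty.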
